A study of Mus musculus with 2 samples.

Results

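Transcript levels of 10 genes of iron handling were examined in livers of HFD-fed mice that overexpressed the long noncoding RNA *Wee1-AS*. The genes were the hormone genes *Hamp* and *Hamp2*, the ligand gene *Bmp6*, the receptor genes *Tfr2* and *Tfrc*, the exporter gene *Slc40a1*, the ferritin genes *Fth1* and *Ftl1*, and the plasma protein genes *Trf* and *Cp*. They were taken by symbol from the deposited transcript table, in which they have 26 of 129299 transcript rows. Counts were summed per symbol, which gave 10 of 45777 symbols in all, and all 10 were among the 15857 symbols that reached 10 counts in either library. Mice of the strain C57BL/6 (C57BL/6 N in the methods) were 7 weeks old at the start of an 18 week HFD. Both groups carried an adeno-associated virus given into the retro-orbital sinus at week 13 of the diet, 5 weeks before the end. The virus expressed GFP in the control group (AAV-GFP) and *Wee1-AS* in the other (AAV-*Wee1-AS*). The *Wee1-AS* vector was of serotype AAV9 with the CMV promoter, which is active in many cell types and not in hepatocytes alone. The sex of these mice and whether livers were pooled are not given in the sources used here, and *Wee1-AS* itself was not analysed here.

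Each group had 1 library of poly-A RNA, so differences have no replicate check and no p-values are given. The series' design mentions 4 liver samples, and 2 libraries were analysed here. The libraries held 55466182 (AAV-GFP) and 48079335 (AAV-*Wee1-AS*) estimated counts. Differences are given as log2 ratios (AAV-*Wee1-AS* over AAV-GFP) after TMM scaling, with a 95% counting interval. Such intervals concern these 2 libraries rather than the treatments. They cover counting error only. They may be too narrow even for that, because PCR copies of a molecule are counted as separate reads and the counts are estimates. Levels of different genes are compared in TPM, which corrects for transcript length. Hepatocyte transcripts were abundant in both libraries, with a summed level of 87757 and 96992 TPM over 10 hepatocyte markers, of which *Alb* had the highest counts (2542754 and 3065513). Of these markers, *Apob* (log2 ratio 1.82) and *Cps1* (1.21) were past 2-fold higher, where 22.2% of all genes were, and the median ratio was -0.04. Ratios of 4 markers were above 0 and those of 6 below 0, among them *Ttr* (536296 and 289753 counts, -0.62). With trends of GC content and transcript length removed, *Apob* was at 0.03, *Cps1* at 0.30 and *Ttr* at -0.98, and none of the 10 was past 2-fold.

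Iron leaves cells through ferroportin, the product of *Slc40a1*, and hepcidin, the liver hormone encoded by *Hamp*, binds ferroportin and leads to its degradation. Liver endothelial cells release BMP6, which acts on hepatocytes through BMP receptors and SMAD proteins to raise *Hamp* transcription, and transferrin receptor 2 and HFE take part in sensing transferrin-bound iron. Iron regulatory proteins (IRPs) bind stem-loops called iron-responsive elements. When iron is low, this binding blocks translation of ferritin mRNA from its 5′ UTR and stabilises the transferrin receptor mRNA through its 3′ UTR.

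Of the 10 genes, *Tfrc* and *Slc40a1* were past 2-fold, both higher with AAV-*Wee1-AS*, and none of the 10 was past 2-fold lower. In the same comparison, 31.0% of the 15857 genes tested were past 2-fold, 22.2% being higher and 8.71% lower with AAV-*Wee1-AS*. The count of 2 among 10 is thus no larger than the share among all genes. *Tfrc*, *Slc40a1* and *Cp* had ratios above 0 and the other 7 below 0, and the median of all genes was -0.02. The largest ratio was that of *Tfrc*, 5.34-fold higher with AAV-*Wee1-AS*. The lowest was that of *Ftl1*, at 0.509 of its AAV-GFP level. Together the 10 genes had 34990 TPM with AAV-GFP and 23423 TPM with AAV-*Wee1-AS*, which is 3.50% and 2.34% of all TPM in these libraries.

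**Figure D1:**
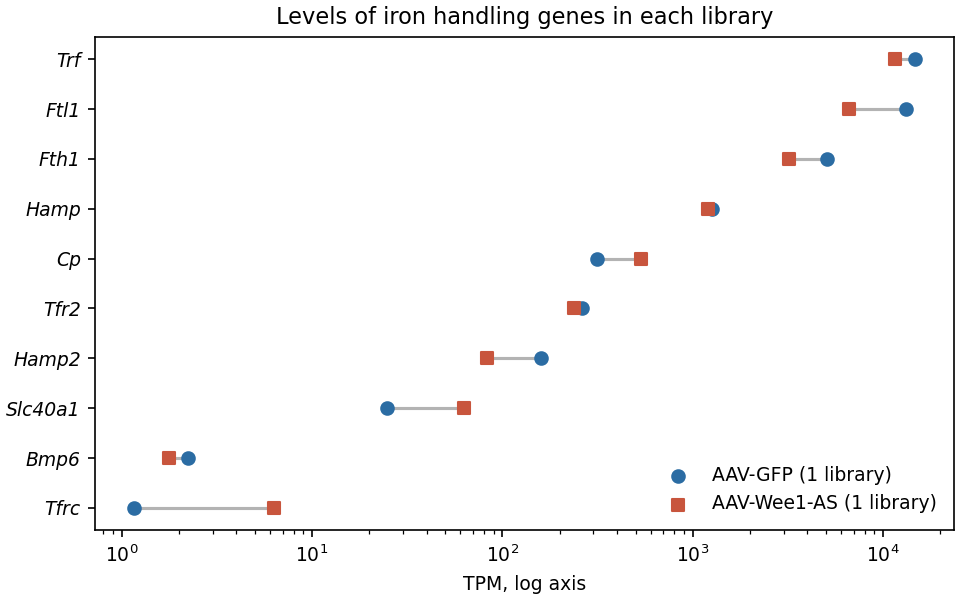
Level of each gene in TPM (log axis), with 1 point for AAV-GFP and 1 point for AAV-*Wee1-AS* (1 library each). *Trf*, *Ftl1* and *Fth1* had the highest levels in both libraries, and the points of *Tfrc* lie farthest apart.

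**Figure D2:**
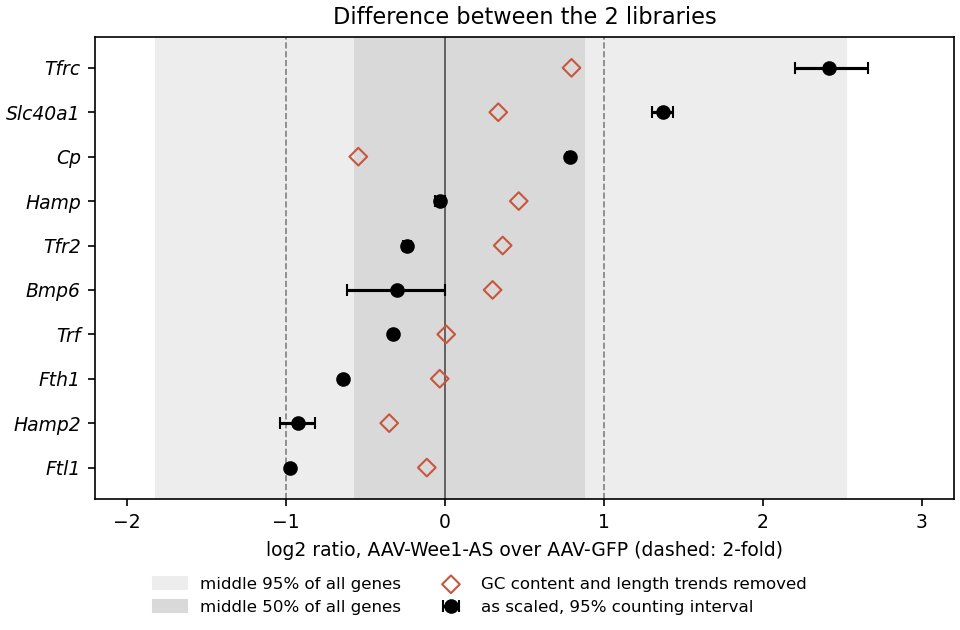
Log2 ratio of AAV-*Wee1-AS* over AAV-GFP for the 10 genes, as scaled with 95% counting intervals and with the trends of GC content and length removed (1 library per group). Shaded bands hold the middle 50% and 95% of all genes as scaled. *Tfrc* (2.42) and *Slc40a1* (1.37) lie past the 2-fold line as scaled, and no gene does once the trends are removed.

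*Hamp* was a well-expressed transcript with almost the same level in both libraries, and its paralog *Hamp2* was lower with AAV-*Wee1-AS*. *Hamp* (chr7:30942368-30944029, minus strand) had 16845 counts with AAV-GFP and 13719 with AAV-*Wee1-AS*. Its level was 1257 and 1208 TPM, rank 116 and 117 among all genes. The log2 ratio was -0.03 (-0.07 to 0.000108), close to the median of all genes. *Hamp2* (chr7:30922372-30924181), a mouse paralog next to *Hamp*, had 2304 and 1009 counts. Its level was 160 TPM with AAV-GFP and 82.7 TPM with AAV-*Wee1-AS*, with a log2 ratio of -0.93 (-1.04 to -0.82), above that of 10.2% of genes. It was -0.35 for *Hamp2* and 0.46 for *Hamp* with the trends of GC content and length removed. In TPM, *Hamp* stood 7.85 times above *Hamp2* with AAV-GFP and 14.6 times above it with AAV-*Wee1-AS*.

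The 250 bases before the start of each hepcidin gene are shown because BMP and interleukin-6 signals reach *Hamp* through promoter elements, and the paralogs had different ratios (RefSeq, GRCm38.p6, 5′ to 3′ on the minus strand). Capitals mark GGCGCC, the core letters of a BMP-responsive element, and TTCNNNGAA, the letters of a STAT site, both of which read the same on either strand.
Hamp, chr7:30944030-30944279: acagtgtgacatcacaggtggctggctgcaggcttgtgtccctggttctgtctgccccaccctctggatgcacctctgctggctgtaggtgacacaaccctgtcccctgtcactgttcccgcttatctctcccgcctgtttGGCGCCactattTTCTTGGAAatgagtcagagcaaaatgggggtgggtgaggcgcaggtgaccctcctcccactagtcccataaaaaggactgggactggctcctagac
Hamp2, chr7:30924182-30924431: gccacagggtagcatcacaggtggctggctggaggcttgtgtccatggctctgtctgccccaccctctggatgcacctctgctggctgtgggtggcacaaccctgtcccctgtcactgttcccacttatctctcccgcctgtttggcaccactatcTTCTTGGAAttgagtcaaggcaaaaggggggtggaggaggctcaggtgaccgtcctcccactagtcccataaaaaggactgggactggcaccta
Aligned over 253 columns, these stretches were 89.7% identical. Counted from the transcript start, GGCGCC began at -109 and TTCNNNGAA at -97 in *Hamp*. *Hamp2* had TTCNNNGAA at -94 and no GGCGCC. Over 32851 RefSeq promoters of this length, 9.59% held GGCGCC, 7.02% held TTCNNNGAA and 0.368% held both. Of the 10 genes, 8 had promoter entries, and besides the hepcidin genes, only *Tfrc* held either pattern, with GGCGCC in 1 of its windows. *Slc40a1* and *Trf* had no entry. These matches describe the letters and are not evidence of binding. The *Hamp* and *Hamp2* transcripts were 88.8% identical over 437 aligned columns, with a longest shared stretch of 87 bases, while reads were 100 bases long. How reads that fit both genes were divided is not given in the sources used here, so part of each count may belong to the other gene.

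*Bmp6*, the ligand that links liver iron to *Hamp*, was at a low level in both libraries. *Bmp6* (chr13:38345716-38500314) had 221 counts with AAV-GFP and 149 with AAV-*Wee1-AS*, or 2.24 and 1.77 TPM. The log2 ratio was -0.30 (-0.61 to 0.00117), so a difference was not detectable at this depth, and it was 0.30 with the trends of GC content and length removed. At its 3′ end *Bmp6* overlaps *Txndc5* on the other strand, which had 18073 and 10077 counts (log2 ratio -0.58). The library kit kept strand, but whether strand was used in counting is not given in the sources used here. Among 10 markers of sinusoidal endothelial cells, the liver cells known to make BMP6, the summed level was 281 and 224 TPM, and the median log2 ratio was -0.24 (-0.46 with the trends of GC content and length removed, where 8 of 10 were below 0). None of these markers was past 2-fold, beside 31.0% of all genes. In whole liver RNA, fewer cells of a type and less RNA per cell cannot be told apart.

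The transferrin receptors differed in level and in ratio. Transferrin receptor 2, a sensor of transferrin-bound iron found mainly in hepatocytes, had 29314 counts (261 TPM) with AAV-GFP and 20678 counts (236 TPM) with AAV-*Wee1-AS* (*Tfr2*, chr5:137569822-137588081). The log2 ratio of *Tfr2* was -0.24 (-0.27 to -0.21), and 0.36 with the trends of GC content and length removed. Transferrin receptor 1, which brings iron-loaded transferrin into most cell types, was scarce in both libraries. Its gene *Tfrc* (chr16:32608896-32632794) had 193 counts with AAV-GFP and 866 with AAV-*Wee1-AS*, or 1.17 and 6.30 TPM. This is a log2 ratio of 2.42 (2.20 to 2.66), above that of 97.1% of genes. It was 0.80 with the trends of GC content and length removed, short of 2-fold. In TPM, *Tfr2* was 224 times the level of *Tfrc* with AAV-GFP and 37.5 times with AAV-*Wee1-AS*.

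Both receptor genes were also assigned to other transcript models in the 2 libraries. For *Tfr2*, 3 predicted models end at position 137587481, which is 600 bases upstream of the end of the other 5 models at 137588081. The shorter-ended models held 7334 of 29314 counts with AAV-GFP (25.0%, Wilson 95% interval 24.5% to 25.5%). They held 14621 of 20678 counts with AAV-*Wee1-AS* (70.7%, 70.1% to 71.3%). The sum over all models was thus slightly lower with AAV-*Wee1-AS* while the models with the distal end were lower and those with the proximal end higher. With curated protein-coding models alone, all of which have the distal end, the log2 ratio of *Tfr2* was -1.60, and with its best-counted model alone it was 1.43. Its direction therefore depends on the models counted. For *Tfrc*, 2 models share the 3′ end and differ at the start. The upstream-starting model had 0 of 193 counts with AAV-GFP, which allows a share of up to 1.55% (3 counts of 193), and 844 of 866 counts with AAV-*Wee1-AS* (97.5%, 96.2% to 98.3%). The other model had 193 and 22 counts. These are estimated shares between overlapping models, and reads over the differing ends were not examined.

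**Figure D3:**
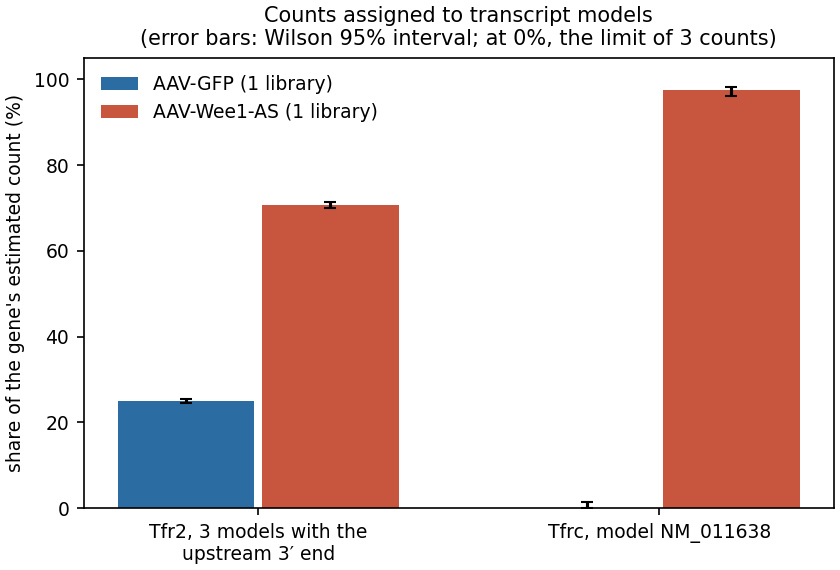
Share of the gene's estimated count (%) assigned to the *Tfr2* models with the proximal end and to the upstream-starting *Tfrc* model, in the AAV-GFP and AAV-*Wee1-AS* libraries, with Wilson 95% intervals for counting error, or at 0% the limit that 3 counts give (1.55%). The *Tfr2* share was 25.0% and 70.7%, and the *Tfrc* share 0% and 97.5%.

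*Slc40a1*, the gene of the iron exporter ferroportin, was higher with AAV-*Wee1-AS*. It lies at chr1:45908070-45926532 and had 2756 counts (24.8 TPM) with AAV-GFP and 5935 counts (63.0 TPM) with AAV-*Wee1-AS*. The log2 ratio was 1.37 (1.30 to 1.44), a 2.58-fold difference, above that of 84.7% of genes, and 0.33 with the trends of GC content and length removed. One model of the 3 listed held 96.6% and 97.2% of its counts, and the log2 ratio of *Slc40a1* was 1.38 from its curated model alone. In TPM, *Tfr2* was 10.5 times the level of *Slc40a1* with AAV-GFP and 3.76 times with AAV-*Wee1-AS*. With the trends removed, the log2 ratios of *Tfr2* (0.36) and *Slc40a1* (0.33) were nearly the same, and the *Tfr2* sum depends on the models counted.

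Both ferritin genes, which encode the subunits of the iron storage shell, were lower with AAV-*Wee1-AS* as scaled, and *Ftl1* came close to 2-fold. Both came near 0 with the trends of GC content and length removed (*Fth1* -0.03, *Ftl1* -0.11), and *Ftl1* lay past 2-fold lower under 6 of 14 alternatives. *Fth1* (chr19:9980600-9985111), the heavy subunit that oxidises iron, had 157553 and 84202 counts, or 5078 and 3202 TPM. Its log2 ratio was -0.64 (-0.65 to -0.63). *Ftl1* (chr7:45457944-45459886), the light subunit, had 423185 and 179283 counts, or 13246 and 6622 TPM, and a log2 ratio of -0.98 (-0.98 to -0.97), above that of 9.16% of genes. *Ftl1* ranked 8 among all genes with AAV-GFP and 26 with AAV-*Wee1-AS*, and *Fth1* ranked 24 and 53. The subunit genes together took 1.83% of all TPM with AAV-GFP and 0.982% with AAV-*Wee1-AS*. In TPM, *Ftl1* was 2.61 times *Fth1* with AAV-GFP and 2.07 times with AAV-*Wee1-AS*.

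The table also lists symbols named as pseudogene copies of *Ftl1*, and how reads that fit several of them were divided is not given in the sources used here. The *Ftl1* copies *Ftl1-ps1*, *Ftl2-ps* and *Ftl1-ps2* had 17357, 13752 and 152 counts with AAV-GFP and 7162, 5712 and 43 counts with AAV-*Wee1-AS*. The log2 ratio was -1.01 for *Ftl1-ps1* and -1.52 for *Ftl1-ps2*, so all 3 copies were lower with AAV-*Wee1-AS*, as *Ftl1* was. With the 3 copies added, a sum chosen after the values were seen, the log2 ratio of *Ftl1* was -0.98. The 8 symbols of the *Fthl17* family, X-linked relatives of *Fth1*, were listed at 0 in both libraries.

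Sites that match a pattern of the iron-responsive element are shown for *Fth1*, *Ftl1*, *Slc40a1* and *Tfrc*. They are shown because the transcripts of these genes are known to be bound by IRPs. Those of the 4 with the element in the 5′ UTR also did not have ratios of one direction. The pattern searched was C, 5 bases, CAGTGN and 5 bases that pair with the first 5, on the sense strand of GENCODE M21 transcripts (GRCm38). Elements that depart from this pattern were not searched for, so a gene may have more than those shown. Capitals mark CAGTGN, the loop of the element.
Fth1 5′ UTR, chr19:9982732-9982761, plus strand: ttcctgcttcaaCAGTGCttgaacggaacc
Ftl1 5′ UTR, chr7:45459778-45459807, minus strand: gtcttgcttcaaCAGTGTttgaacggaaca
Slc40a1 5′ UTR, chr1:45925464-45925493, minus strand: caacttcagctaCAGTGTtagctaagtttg
Tfrc 3′ UTR, chr16:32631219-32631248, plus strand: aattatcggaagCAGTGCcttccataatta
Tfrc 3′ UTR, chr16:32631598-32631627, plus strand: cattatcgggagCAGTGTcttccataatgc
Tfrc 3′ UTR, chr16:32631663-32631692, plus strand: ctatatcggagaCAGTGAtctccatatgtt
Tfrc 3′ UTR, chr16:32631710-32631739, plus strand: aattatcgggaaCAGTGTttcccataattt
Of the 10 genes, 4 held the pattern, at 7 sites, 4 of them in the 3′ UTR of *Tfrc*. The pattern was in the 5′ UTR of 24 of 13161 genes (0.182%) and in the 3′ UTR of 99 of 13313 genes (0.744%). Among genes with a 5′ site, *Slc40a1* was higher with AAV-*Wee1-AS* and *Fth1* and *Ftl1* were lower. Of all 24 genes with a 5′ site, 12 had ratios above 0 and 12 below 0, with a median of -0.11. Their median was -0.06 with the trends removed. *Tfrc*, with 3′ sites, was higher. Of all 99 genes with a 3′ site, 53 had ratios above 0 and 46 below 0, with a median of 0.11 as scaled and -0.15 with the trends removed. IRPs act on the protein made from 5′ elements, which RNA sequencing does not measure.

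The plasma iron proteins had opposite ratios as scaled. *Trf* (chr9:103208876-103230286), which encodes transferrin, the carrier of iron in blood, had 1124896 counts with AAV-GFP and 746464 with AAV-*Wee1-AS*. Its level was 14646 and 11468 TPM, the highest of the 10 genes in each library, and its log2 ratio was -0.33 (-0.33 to -0.32). *Cp* (chr3:19956933-20009750), which encodes the copper-bearing ferroxidase ceruloplasmin, had 40849 and 58604 counts. Its level was 315 and 533 TPM, with a log2 ratio of 0.78 (0.77 to 0.80), short of 2-fold. The ratio of *Cp* was 0.36 from curated models alone and turned to -0.55 with the trends of GC content and length removed, where *Trf* was at 0.00728. In TPM, *Trf* was 1.11 times *Ftl1* with AAV-GFP and 1.73 times with AAV-*Wee1-AS*. *Cp* overlaps *Hps3* on the other strand, which had 179 and 294 counts, few beside those of *Cp*. Of the 6 models of *Cp*, 2 held 99.2% of its counts with AAV-GFP and 99.6% with AAV-*Wee1-AS*.

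The ratios of the 10 genes went along with the base composition of their transcripts. The 15100 genes with a GC value were split into 10 groups of 1510 by the GC content of their transcripts. Of the genes poorest in GC, 69.1% were past 2-fold higher and 1.26% past 2-fold lower. Of those richest in GC, 1.13% were past 2-fold higher and 20.8% lower. *Tfrc* (39.8% GC) and *Cp* (41.7%) were in the lowest group and *Slc40a1* (43.5%) in the next, where 56.8% of genes were past 2-fold higher. The 7 genes with ratios below 0 had GC contents from 50.5% (*Hamp*) to 58.1% (*Ftl1*).

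With the trends of GC content and transcript length removed, none of the 10 genes was past 2-fold. After that step, 13.8% of 15100 genes were past 2-fold, 6.48% higher and 7.34% lower. The ratio of *Cp* turned below 0 and those of *Hamp*, *Tfr2*, *Bmp6* and *Trf* above 0, while *Hamp2*, *Fth1* and *Ftl1* stayed below 0. Ratios of 6 of the 10 were then above 0, against 3 before. *Tfrc* remained above 89.9% of genes, and *Hamp* lay above 79.3% of them. Removing the trends also takes away any difference between the livers that itself goes with GC content or length, and where the trends come from was not tested.

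**Figure D4:**
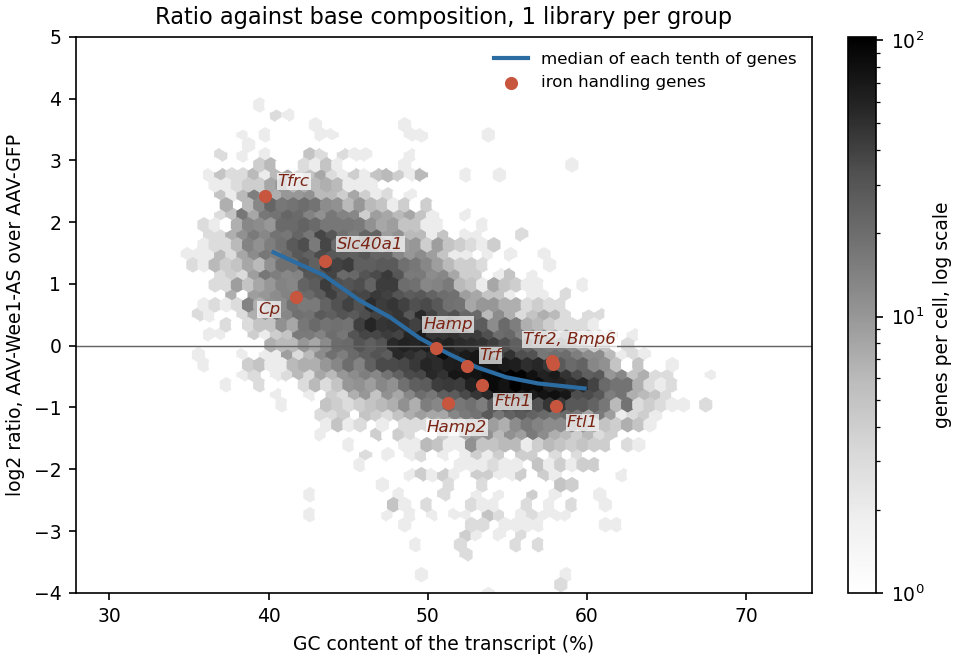
Log2 ratio of AAV-*Wee1-AS* over AAV-GFP against GC content (%) of the transcript. Gray cells show the number of genes, the line joins the medians of the 10 groups of genes by GC content, and the red points are the 10 iron handling genes, of which *Tfrc*, *Cp* and *Slc40a1* lie at the low GC end and above 0.

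The other genes of the pathway were taken as 5 lists with 101 genes, of which 95 were tested. Of these, 19 were past 2-fold higher and 3 lower. This is 23.2%, beside 31.0% of all genes, and the median log2 ratio was -0.16 beside -0.02 for all genes. With curated protein-coding transcripts alone, 32 of the listed genes were past 2-fold, and 4153 of 12240 genes in all. With the trends removed, 5 of 94 were past 2-fold higher and 1 lower, beside 13.8% of all genes past 2-fold. The 5 were *Scara5*, *Fgl1*, *Cd163*, *Bmp4* (47 and 71 counts, 1.20) and *Bmpr1a*, and the lower one was *Lrp2* (40 and 21 counts, -1.66). *Bmp4* and *Lrp2* had few counts and are named after their values were seen.

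In the list of hepcidin control, 6 of 25 genes were past 2-fold higher and 1 lower, with a median of 0.44. The share past 2-fold was 28% beside 31.0% of all genes. Of the 5 BMP receptor genes listed, 3 were past 2-fold higher, with *Bmpr1a* at 201 and 1016 counts (2.59), *Bmpr2* at 280 and 967 (2.04) and *Acvr2a* at 203 and 521 (1.61). The other two, *Acvr1* (522 and 524 counts, 0.27) and *Acvr2b* (100 and 160 counts, 0.93), were not. *Id1*, *Smad6*, *Smad7* and *Atoh8*, which are known to be induced by BMP signals, were not past 2-fold either. Their ratios were -0.32, -0.51, -0.54 and -0.64. These became 0.42, 0.16, -0.19 and 0.12 with the trends removed. These 6 genes are named after their values were seen. *Smad5*, a transducer of BMP signals, had 575 and 1167 counts (1.28). *Il6st*, the signal-transducing receptor chain for interleukin-6, had 3680 and 7118 counts (1.21). *Fgl1*, a hepatokine that has been described as an antagonist of BMP6, had 2351 and 17536 counts and the highest ratio of the list, 3.16 (3.10 to 3.23). The gene past 2-fold lower was *Fkbp1a*, whose product FKBP12 binds BMP type I receptors, at 7173 and 2893 counts (-1.05). With the trends removed, 3 of 24 genes were past 2-fold, all higher, with a median of 0.14. *Fgl1* was at 2.36 and *Bmpr1a* at 1.01, while *Bmpr2* (0.07), *Acvr2a* (-0.09) and *Smad5* (-0.03) were near 0. *Il6st* was at 0.44, and *Fkbp1a* was at -0.92, short of 2-fold. *Erfe*, the erythroid hormone that lowers hepcidin, had 6 and 0 counts and was not tested.

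In the list of iron uptake and reduction, 3 of 16 genes (18.8%, beside 31.0% of all genes) were past 2-fold, all higher, with a median of 0.00129. *Scara5*, a ferritin receptor, had 101 and 998 counts, a log2 ratio of 3.54 (3.27 to 3.88). Its transcript has 52.1% GC, and the ratio was 3.62 with the trends removed. *Slc39a8*, a metal importer, had 448 and 976 counts (1.38), and *Steap2*, a metalloreductase, had 111 and 215 (1.20). With the trends removed these were 0.56 and -0.86. *Lrp1*, the best-counted gene of the list and a receptor for heme-loaded hemopexin, had 58041 and 43333 counts (-0.16).

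Among 12 genes of IRP control and ferritin turnover, 5 were past 2-fold higher and 1 lower (50%, beside 31.0% of all genes), with a median of 0.10. *Ireb2*, which encodes IRP2, had 559 and 2635 counts (2.50), and *Fbxl5*, whose product marks IRP2 for degradation, had 681 and 1231 (1.12). *Ncoa4*, the receptor for ferritin breakdown, had 3227 and 6093 counts (1.18), and *Herc2*, a ubiquitin ligase for NCOA4, had 736 and 1663 (1.44). *Cdc42bpa*, a kinase gene, had 362 and 1023 (1.76). *Pcbp4*, of the family of poly(rC)-binding proteins, was lower, at 1100 and 284 counts (-1.68). With the trends removed none of the 12 was past 2-fold, with *Ireb2* at 0.71 and *Pcbp4* at -0.89. *Herc2* was then at 0.54, *Cdc42bpa* at 0.35, *Fbxl5* at 0.19 and *Ncoa4* at 0.17.

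Of 20 genes of heme handling, 3 were past 2-fold higher, 1 lower, and 14 were below 0, with a median of -0.42. This is 20% past 2-fold, beside 31.0% of all genes, and with the trends removed 10 were above 0 and 10 below, with a median of -0.01. *Alas1*, the rate-limiting enzyme of heme synthesis in liver, was past 2-fold lower, at 61181 and 23535 counts (-1.11). *Cd163*, the macrophage receptor for haptoglobin-bound hemoglobin, had 231 and 1254 counts (2.69), and 2.17 with the trends removed. *Flvcr1*, a transporter first described as a heme exporter, had 49 and 108 counts (1.37), and *Abcg2*, which exports porphyrins, had 3233 and 5653 (1.07). With the trends removed, *Cd163* was the one gene of this list past 2-fold, and *Alas1* was at -0.72. Of 22 genes of mitochondrial iron and iron-sulfur clusters, 2 were past 2-fold higher and none lower (9.09%), with a median of -0.30 as scaled and 0.02 with the trends removed. *Hspa9*, a chaperone of cluster transfer, was among them, at 11460 and 23472 counts (1.30). The cluster assembly genes *Glrx5* (5544 and 3575 counts, -0.37) and *Iscu* (5124 and 3190 counts, -0.42) were not past 2-fold.

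**Figure D5:**
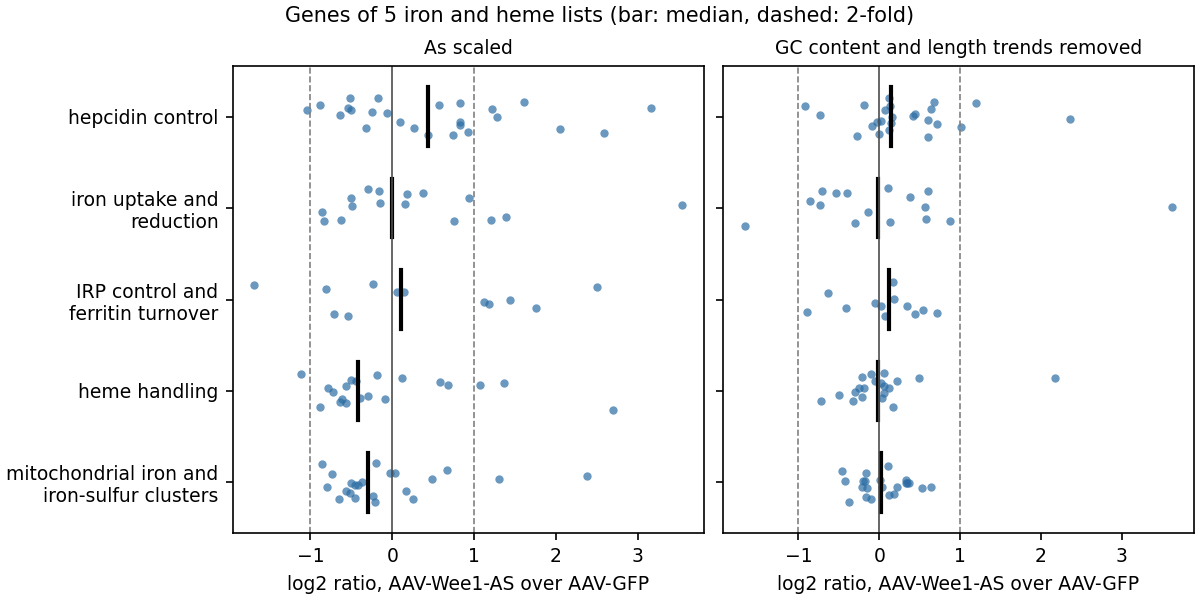
Log2 ratio of AAV-*Wee1-AS* over AAV-GFP for the tested genes of the 5 lists, as scaled (left) and with the trends of GC content and length removed (right). Points are genes, bars are medians and dashed lines mark 2-fold. The points of *Scara5*, *Cd163*, *Fgl1* and *Bmpr1a* lie past 2-fold in both panels.

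Markers of other cells that handle iron, and a list of acute phase genes, gave the following values. Their part in the ratios of the 10 genes was not tested. The counts past 2-fold stand beside 31.0% of all genes, 22.2% higher and 8.71% lower. Of 10 Kupffer cell and macrophage markers, 3 were past 2-fold higher and 1 lower, with a median of -0.27 and a summed level of 767 and 503 TPM. After removal of the trends, 1 of the 10 was past 2-fold higher and none lower, with a median of -0.09. The gene past 2-fold lower as scaled was *C1qb* (6209 and 2563 counts, -1.01), named after its value was seen. *Cd5l* had 13953 and 6876 counts (-0.76) and *Clec4f* 7220 and 5418 (-0.15), while *Marco* had 162 and 414 (1.60) and *Vsig4* 649 and 1550 (1.52). With the trends removed, *Cd5l* was at -0.50, *Clec4f* at 0.13, *Marco* at 2.17 and *Vsig4* at 0.86. All 6 erythroid markers tested had ratios below 0, with a median of -0.88 and a summed level of 3357 and 1789 TPM. Of these, 4 were above 0 with the trends removed, and the median was 0.05. *Hba-a1* had 16743 and 7509 counts (-0.89), and the defining marker *Epb42* was listed at 0 in both libraries. Of 16 genes of the acute phase response, 1 was past 2-fold higher and 1 lower, with a median of 0.33. With the trends removed the median was 0.17, and 1 was past 2-fold higher and none lower. *Saa4* had 8215 and 17479 counts (1.35) and *Cebpd* 520 and 191 (-1.17). Of 8 stellate cell markers, 4 were past 2-fold higher and 1 lower, with a median of 0.90 as scaled. After removal of the trends 1 was past 2-fold higher and none lower, with a median of -0.04. None of 6 cholangiocyte markers was past 2-fold, and their median was -0.03 as scaled and 0.17 after removal of the trends.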

How the data were processed

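Poly-A RNA of liver was sequenced as 100 base read pairs, with 1 library per group. The authors deposited 1 table of RefSeq transcripts (build mm10) with transcript lengths. The estimated counts in it were deposited by the authors without normalization, as shares of reads assigned to overlapping transcripts. TPM deposited by the authors sums to the same total in each library, and the deposited FPKM is scaled per library. The submitters' processing notes name Trimmomatic 0.38, HISAT2 2.1.0, SAMtools 1.9 and StringTie 2.1.3b, without stating which step gave the counts.

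Counts were summed per symbol, scaled by TMM (edgeR 4.0.16, R 4.3.3; factors 1.02 and 0.980), and turned into log2 ratios (prior count 2). The filter kept genes that reached 10 counts in either library. Past 2-fold means a ratio above 2 or below 0.5. Counting intervals are exact (Clopper-Pearson, 95%), those of shares are Wilson intervals, and a share of 0 is given the limit of 3 counts. The 2 libraries held 55466182 and 48079335 estimated counts. GC content came from the GENCODE M21 transcript matched to RefSeq, or from the longest one, for 15100 genes (95.2%). Trends were removed by lowess fits (span 0.3, 5 cycles). Python 3.11.15, scipy 1.17.1, statsmodels 0.14.6 and biopython 1.88 were used, and the steps were tested on simulated data. Members, lists and alternatives were chosen with earlier results of these data known. Named genes were the 10 members, in each pathway list the genes past 2-fold with at least 100 counts in a library, with the best-counted genes where these were few, and in each marker list the best-counted and most different genes, of which some are not reported here. Alternatives were other scalings (upper quartile, library totals with and without the 20 most abundant genes, and DESeq2 1.42.0 size factors), other count filters, a prior count of 0.5, TPM and FPKM with a pseudocount of 1, removal of trends, curated protein-coding transcripts, and the best-counted transcript alone.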

Additional observations from a re-analysis of the deposited data

How the results depend on the processing

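No paired analysis was possible because each group had 1 library, and leaving out a replicate was not possible for the same reason. The number of the 10 genes past 2-fold was 2 as reported and 4 with the upper quartile. It was 3 with library totals (with or without the 20 most abundant genes), DESeq2 size factors, TPM, FPKM, and curated or best-counted transcripts alone. With the trends of GC content and length removed it was 0, and 6 had ratios above 0 in place of 3. The 4908 genes past 2-fold became 2046 with TPM, 1336 with FPKM and 2086 with the trends removed. Of the pathway genes, 22 were past 2-fold, 32 with curated protein-coding transcripts alone, 13 with FPKM and 6 with the trends removed. Of the marker genes, 13 were, 19 with the upper quartile, 8 with FPKM and 3 with the trends removed. The upper quartile moved the median of all genes by -0.20. *Ftl1* crossed 2-fold under 6 of 14 alternatives and *Hamp2* under 1, both with the upper quartile (-1.18 and -1.13). *Hamp* ranged from -0.24 to 0.56, *Bmp6* from -0.51 to 0.30, *Trf* from -0.53 to 0.00728, *Cp* from -0.55 to 0.87 and *Tfr2* from -1.60 to 1.43. *Hamp2*, *Fth1* and *Ftl1* were below 0, and *Tfrc* and *Slc40a1* above 0, under every alternative run. *Tfrc* was at 1.75 with TPM, 1.39 with FPKM, 1.96 with the length trend removed, 0.80 with both trends removed and 8.86 from its best-counted transcript, a value that depends on the prior count because that transcript had 0 counts with AAV-GFP. The settings for *Tfr2* and *Tfrc* at their ends from single or curated transcripts count fewer transcripts, and the cause of the other shifts was not tested. Depth limits *Bmp6* and *Tfrc* most, which had the lowest counts of the 10.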
